A study of Mus musculus with 34 samples.

Results

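Interferon-stimulated genes are genes whose transcription rises when a cell receives an interferon signal. A list of 39 such mouse genes was followed here, each found by its name among the 20614 genes of the expression table, and every one of the 39 was found. The study isolated astrocytes, the star-shaped support cells of the brain, from the cortices of WT male mice by magnetic cell isolation. Polyadenylated RNA was copied into cDNA with the SMART-Seq v4 low-input kit and sequenced, with 1 library per sample and 34 libraries in all. The ages were postnatal day 7 (P7, 4 libraries), P14 (4), P21 (3), P28 (3), P60 (3), and 3, 6, 12 and 18 months (3m, 5 libraries; 6m, 5; 12m, 3; 18m, 4). All groups share the WT genotype, the male sex and the cortex as source, and the labels name no treatment, no strain and no separate animal for each library, so that p-values measure the spread between these libraries, which may be technical. Levels are given in TPM, a unit that divides the reads of a gene by its length and scales every library to the same total. TPM carry no read counts, so the depth behind a value is unknown. 38 of the 39 genes passed the filter for testing, at least 1 TPM in at least 3 libraries. Mx1, a dynamin-like GTPase that blocks virus replication, was the exception: it was listed at 0 in 9 libraries and reached at most 0.638 TPM, in P28 replicate 1.

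Interferons are secreted proteins that bind receptors on the cell surface and switch on the JAK kinases, which phosphorylate STAT proteins. For type I interferons, Stat2 and Irf9 are parts of a complex that binds the interferon-stimulated response element in the promoters of target genes, whereas interferon gamma acts mainly through gamma-activated sites. The products include sensors of foreign nucleic acids, proteins that degrade or sequester viral RNA, membrane proteins that limit virus entry and release, and modifiers that conjugate ubiquitin-like or ADP-ribose groups to proteins. Astrocytes, microglia and brain endothelial cells all carry the receptors, and a low level of these transcripts is present in uninfected brain.

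The response element was looked for in the promoters because many of these genes respond through it. RefSeq promoter sequences (build GRCm38.p6) were at hand for 30 of the 39 genes, that is, for all but Ifi27, Ifi27l2a, Mx1, Usp18, Rtp4, Dhx58, Parp9, Parp14 and Zbp1. The 250 bases before each start were searched on both strands for GAAANNGAAA, which reads TTTCNNTTTC on the other strand, and for the gamma-activated site TTCNNNGAA, which is its own reverse complement. The first motif was found before 11 of the 30 genes (36.7%), against 3.46% of the 27025 genes in the promoter table. The gamma-activated site was found before 6 of the 30 (20.0%), against 8.13% of all genes. The windows of 4 genes, which hold the response element and no annotated exon, are printed 5′ to 3′ on the strand of the gene, with the matches in capitals, because these genes recur in the comparisons across ages. They lie at chr19:34583279-34583528 (plus strand) for Ifit3, chr4:156200819-156201068 (minus strand) for Isg15, chr12:26456453-26456702 (minus strand) for Rsad2 and chr10:128270248-128270497 (plus strand) for Stat2.
Ifit3: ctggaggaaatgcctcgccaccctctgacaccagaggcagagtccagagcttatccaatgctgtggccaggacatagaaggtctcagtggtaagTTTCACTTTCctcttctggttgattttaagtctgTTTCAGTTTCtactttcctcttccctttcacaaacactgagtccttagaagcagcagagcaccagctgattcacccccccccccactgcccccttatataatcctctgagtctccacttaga
Isg15: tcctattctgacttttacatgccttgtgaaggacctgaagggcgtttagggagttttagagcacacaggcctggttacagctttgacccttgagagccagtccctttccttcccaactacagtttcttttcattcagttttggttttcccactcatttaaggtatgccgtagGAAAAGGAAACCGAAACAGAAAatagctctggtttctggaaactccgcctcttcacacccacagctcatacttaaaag
Rsad2: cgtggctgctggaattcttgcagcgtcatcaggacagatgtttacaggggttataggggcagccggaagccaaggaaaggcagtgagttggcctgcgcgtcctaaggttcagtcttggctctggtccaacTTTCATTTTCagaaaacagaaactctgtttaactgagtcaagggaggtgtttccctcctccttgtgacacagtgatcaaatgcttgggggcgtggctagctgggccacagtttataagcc
Stat2: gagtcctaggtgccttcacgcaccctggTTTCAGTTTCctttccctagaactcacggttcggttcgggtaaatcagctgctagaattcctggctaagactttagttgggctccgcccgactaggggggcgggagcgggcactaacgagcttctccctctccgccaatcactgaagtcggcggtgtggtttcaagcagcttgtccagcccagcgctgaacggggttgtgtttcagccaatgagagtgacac
The window of Ifit3 held 2 matches, which start at -156 and -122 from the transcription start. Isg15 held 3 matches, starting at -78, -72 and -66, each sharing 4 bases with the next. Rsad2 held 1 match at -120 and Stat2 held 1 at -222. The gamma-activated site was found before Bst2, Eif2ak2, Ifit2, Irf1, Isg20 and Oas1a, and Bst2 and Oas1a held both motifs. A match describes the letters in these windows and does not show that a factor binds there.

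Several of the genes are neighbours in the genome (GENCODE vM21 gene bounds, GRCm38). Ifit2 (chr19:34550694-34576419), Ifit3 (chr19:34583531-34588731) and Ifit1 (chr19:34640871-34650009) form a cluster on the plus strand. Rsad2 (chr12:26442746-26456452, minus strand) and Cmpk2 (chr12:26469204-26479837, plus strand) start next to each other on opposite strands, as do Dtx3l (chr16:35926511-35939151, minus strand) and Parp9 (chr16:35938470-35972605, plus strand). Gbp3 (chr3:142560026-142573209) and Gbp2 (chr3:142620602-142638008) lie near each other on the plus strand, and Ifitm2 (chr7:140954837-140955987) and Ifitm3 (chr7:141009586-141010770) close together on the minus strand.

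**Figure D1:**
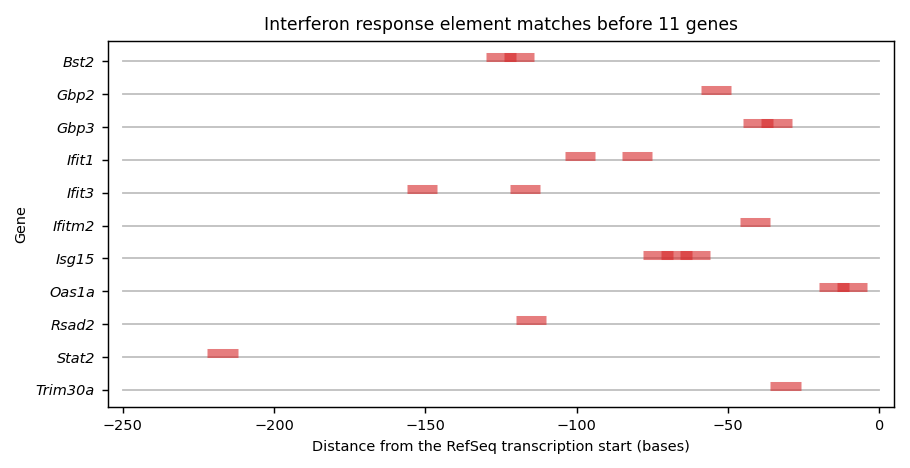
Positions of the interferon response element matches (red blocks, 10 bases each, darker where matches overlap) in the 250 bases before the transcription start of the 11 genes that hold one. The x axis is the distance from the start in bases; the match of Stat2 lies farthest from the start, and those of Oas1a lie closest.

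The libraries carried the markers of astrocytes at every age. All 10 astrocyte markers were measured, and their summed level lay between 9953 and 23050 TPM. Transcripts of other cells were also present, and none of their marker genes was at 0 in every library. The 12 endothelial markers summed to between 277 and 3258 TPM over the 34 libraries, the 12 microglial markers to between 82.4 and 281 TPM, the 7 T cell and NK cell markers in the table to between 0.598 and 19.0 TPM and the 6 B cell and neutrophil markers to between 0.836 and 42.9 TPM. The 5 erythroid genes summed to between 439 and 67750 TPM, with the highest single sum at P21, where they lay at 36270 to 67750 TPM. The number of genes listed at 0 put the libraries in 3 separate ranges. The 14 libraries of P7, P14, 18m and replicates 1 and 2 of 12m had 4109 to 4819 such genes. At P21, P28 and P60, the 9 libraries had 2854 to 3523, and the 11 libraries of 3m, 6m and replicate 3 of 12m had 1155 to 1704. Differences in age between these ranges cannot be told apart from whatever set the ranges. Only 18m against P7 and P60 against P28 compare libraries of 1 range.

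**Figure D2:**
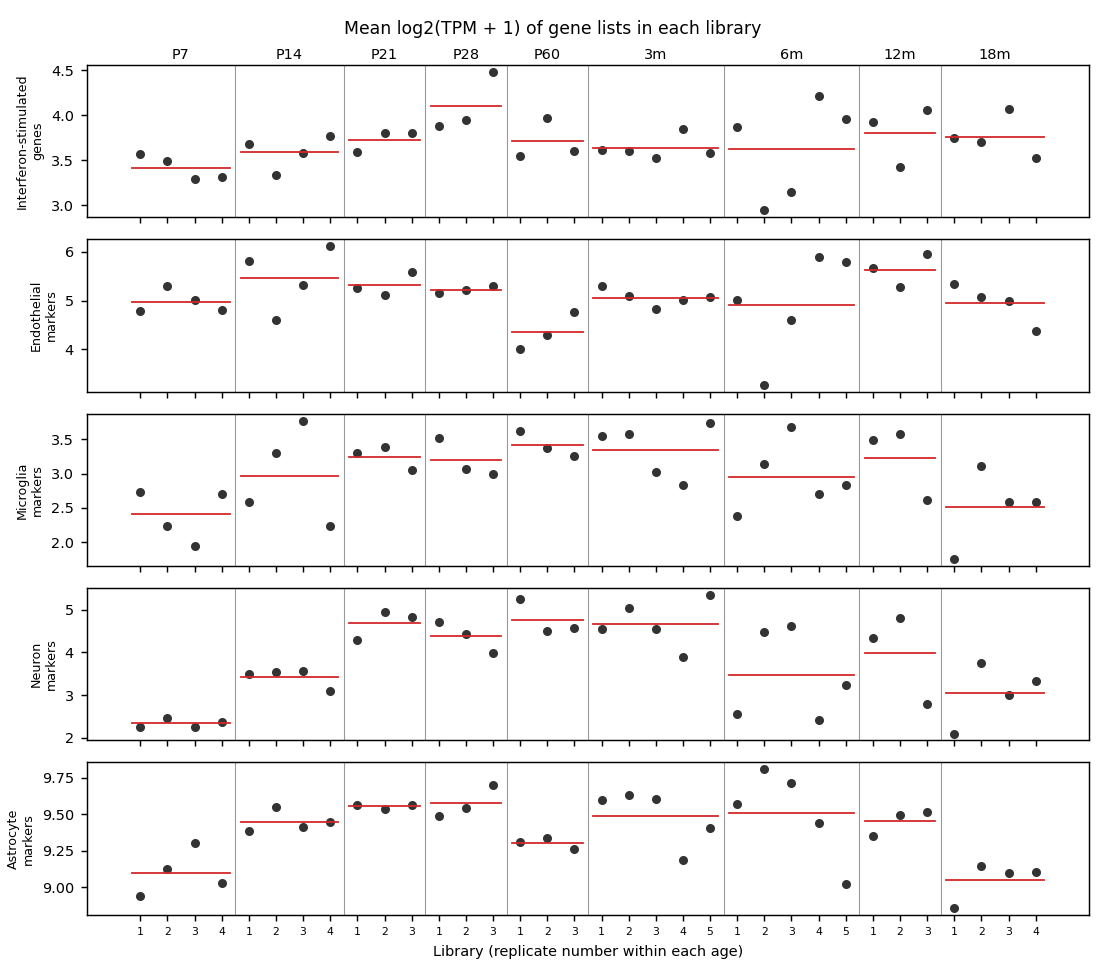
Mean log2(TPM + 1) of all 39 interferon-stimulated genes and of 4 lists of cell type markers in each of the 34 libraries (points), by age, with the mean of each age as a red line. P28 replicate 3 has the highest mean of the interferon-stimulated genes, 4.48, and 6m replicate 2 has the lowest, 2.94, as well as the lowest mean of the endothelial markers.

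The 39 genes spanned a wide range of levels. Ifitm3 and Ifitm2, small membrane proteins that hinder the fusion of virus and cell membranes, were the most abundant, with means over all libraries of 660 and 337 TPM. Ifi27, a small induced membrane protein, averaged 253 TPM, Lgals3bp, a secreted glycoprotein that binds galectins, averaged 84.3 TPM, and Ifit3, an RNA-binding partner of Ifit1, averaged 66.1 TPM. At the other end, the dsRNA sensor Ifih1 (MDA5) averaged 2.68 TPM, its regulator Dhx58 (LGP2) 2.29 TPM, the ubiquitin ligase Trim30a 1.995 TPM and the Z-form nucleic acid sensor Zbp1 1.12 TPM.

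Of the 38 genes tested, 17 differed among the 9 ages by limma's F test at an adjusted p under 0.05, which is 44.7%, while 63.6% of all 14590 genes tested did. The 17 were Lgals3bp, Ifitm2, Ifi27, Eif2ak2, Rsad2, Xaf1, Irf7, Parp14, Sp100, Rtp4, Isg20, Ifitm3, Dtx3l, Dhx58, Irf1, Cmpk2 and Ifit1. The smallest adjusted p was that of Lgals3bp (0.000209) and the largest of the 17 that of Ifit1 (0.0485). The highest of the 9 age means lay at P28 for 26 of the 38 genes, while 17.2% of all genes tested had theirs there. The lowest lay at P7 for 25 of the 38, against 18.8% of all genes, and these 25 are not independent of the 26, since both come from the same means. The count at P28 rests partly on 1 library: without P28 replicate 3 it was 16 of 38, against 12.4% of all genes. By medians with all libraries it was 17 of 38, against 17.3% of all genes. The 12 other genes had their highest mean at P7 (Ifitm2, Stat2), P21 (Isg20, Rsad2), P60 (Ifit2, Ifit3, Ifi27, Ifi27l2a, Ifitm3), 3m (Trim25) or 12m (Parp14, Samd9l).

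Some genes followed courses of their own across the 9 ages from P7 to 18m. Ifitm2 had mean levels of 558, 337, 206, 240.1, 289, 337, 302, 264 and 418 TPM, lowest at P21 and highest at P7 and 18m. Ifitm3 had means of 774, 622, 368, 655, 874, 670.3, 561, 601 and 802 TPM, also lowest at P21. Isg20, an exonuclease that degrades RNA, had means of 4.79, 6.59, 16.8, 8.03, 6.37, 6.76, 7.11, 8.44 and 9.77 TPM, and its 3 P21 libraries held 12.9, 13.7 and 23.8 TPM, all above the mean of every other age. Rsad2 (viperin), which makes a nucleotide that stops viral polymerases, had means of 1.63, 2.35, 6.87, 4.56, 3.51, 2.44, 2.92, 4.42 and 4.93 TPM. Its P21 libraries held 5.23, 5.63 and 9.74 TPM, likewise all above the mean of every other age. Single libraries overlapped, however, since some at 18m, given below, lay above the lower P21 libraries. The erythroid genes also had their highest mean at P21, and their part in these courses was not tested.

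**Figure D3:**
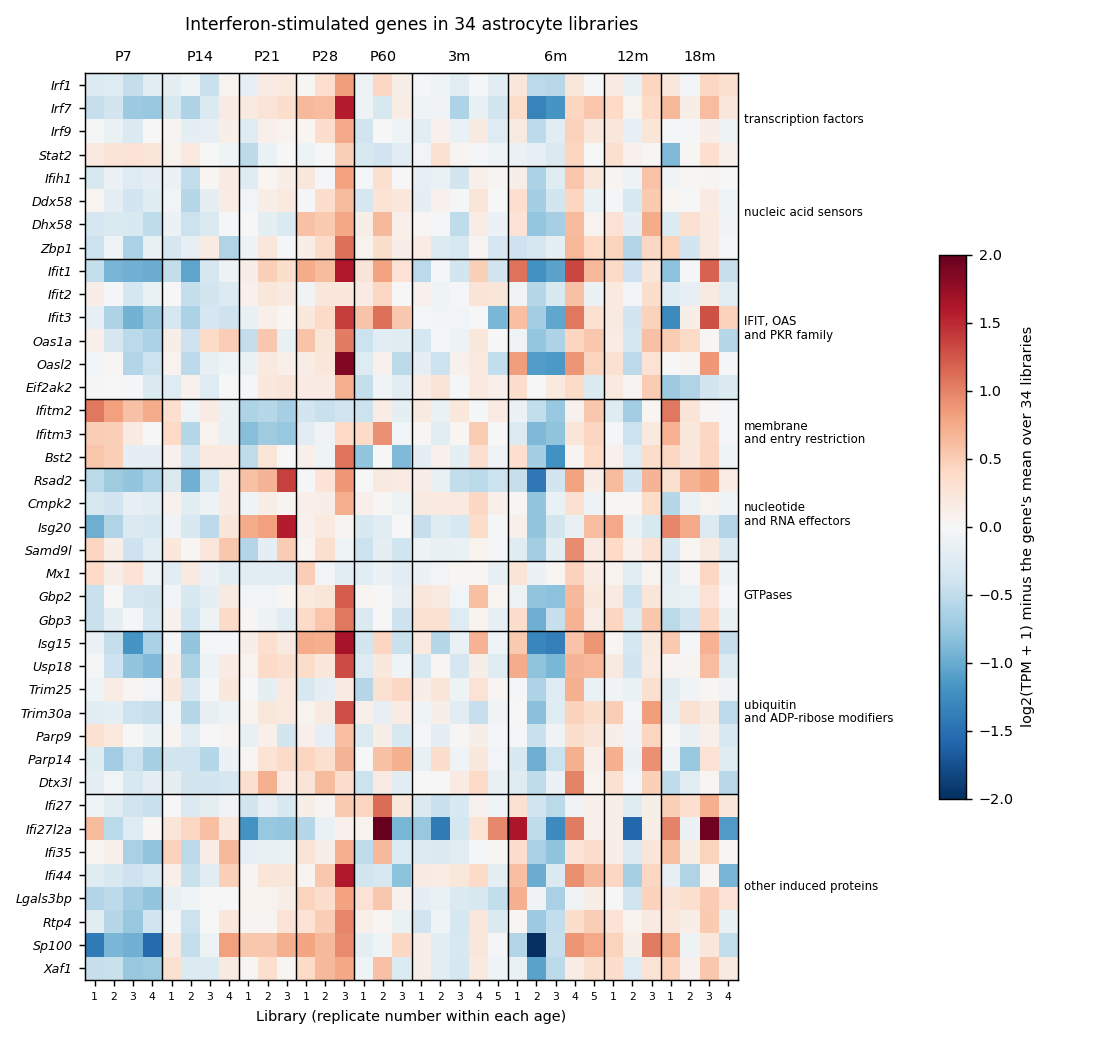
Level of each of the 39 genes in each of the 34 libraries as log2(TPM + 1) minus the mean of the gene over all libraries (colour scale, ending at -2 and 2), with genes grouped by role and libraries by age. P28 replicate 3 is red for most genes, and replicates 2 and 3 of 6m are blue for most.

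P28 replicate 3 stood apart. It had the highest level of its age for 33 of 38 genes (54.7% of all genes tested) and the highest of all 34 libraries for 26 of 38 (5.35% of all genes tested). Its endothelial and microglial markers did not stand apart from those of replicates 1 and 2: the endothelial list averaged 5.15, 5.21 and 5.30 on the log2(TPM + 1) scale in replicates 1, 2 and 3, and the microglial list 3.52, 3.07 and 2.997. On the same scale and in the same order, the neuronal list averaged 4.70, 4.44 and 3.99 and the astrocyte list 9.485, 9.54 and 9.70. Replicate 3 was thus the lowest of its age for the neuronal list and the highest for the astrocyte list, and the part of its cell mix was not tested. The T cell and NK cell markers summed to 4.12, 16.9 and 8.70 TPM in the same order. Calls at P28 are therefore also given without that library.

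P28 was compared with P7, a comparison chosen after the levels by age had been seen. Of the 38 genes, 25 rose (65.8%), against 21.4% of all genes tested, and 1 fell, against 21.4% of all genes tested, by limma at an adjusted p under 0.05, with 42.8% of all genes called in either direction. The median log2 fold change of the 38 genes was 0.77, against -0.02 over all genes tested (0.51 and -0.07 without P28 replicate 3). Without P28 replicate 3, 9 rose and 1 fell, against 15.2% and 19.0% of all genes. These were Ifit1, Irf7, Isg15, Xaf1, Rtp4, Dhx58, Parp14, Lgals3bp and Sp100, which rose, and Ifitm2, which fell. The fit without P28 replicate 3, 1 of 34 that each left out 1 library, defined these 10 calls and so cannot test them. All 10 held in the other such fits. They also held in all 8 other settings tried in which the gene was tested. Fewer cells of a type and less RNA per cell cannot be told apart in bulk libraries. At P28, 3 of 12 endothelial, 6 of 12 microglial, 3 of 4 tested T cell and NK cell and 9 of 10 neuronal markers were also higher than at P7 and none was lower. Ependymal markers were higher for 5 of 6 and oligodendrocyte markers for 4 of 8, with 1 of the 8 lower. Fibroblast markers were lower for 5 of 6, pericyte and smooth muscle markers for 2 of 9, and of 5 oligodendrocyte precursor markers 2 were higher and 2 lower. Of the 10 astrocyte markers, 7 were higher and 2 lower. The endothelial sum lay at 1684 to 1854 TPM at P28, against 810 to 1316 TPM at P7, and the microglial sum at 161 to 213 TPM, against 82.4 to 150.0 TPM at P7. The T cell and NK cell sum lay at 4.12 to 16.9 TPM, against 0.598 to 3.02 TPM at P7, and the neuronal sum at 246 to 419 TPM, against 88.9 to 103 TPM at P7. With the endothelial and microglial means as covariates, 24 of the 26 calls were kept. The share of all genes called in that fit is not given here. Its median log2 fold change was 0.74 for the 38 genes, against -0.001 over all genes tested. The part of other cell types was not tested further.

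Among the transcription factors, 3 of 4 rose at P28 (1 without P28 replicate 3). Irf7, which drives the amplification of type I interferon production, had 16.6, 16.2 and 32.5 TPM at P28, against 7.15, 7.73, 5.80 and 5.68 TPM at P7. All 3 P28 libraries lay above all 4 P7 libraries, with replicate 3 far above the other two. The means differed 3.31-fold, with a log2 fold change of 1.52 ± 0.33 (SE) and an adjusted p of 0.000893 (without P28 replicate 3, 1.21 and 0.0123). Irf1, an early factor that responds strongly to interferon gamma, averaged 30.6 ± 9.10 TPM at P28, against 17.9 ± 1.48 TPM at P7 (SD, n = 3 and 4), and Irf9, the DNA-binding part of the type I complex, 30.3 ± 7.91 TPM against 20.9 ± 1.99 TPM. Both were called (log2 fold changes of 0.71 ± 0.19 and 0.49 ± 0.18), and neither call held without P28 replicate 3 (adjusted p = 0.0592 and 0.225). Stat2 had a log2 fold change of -0.11 ± 0.20 and was not called.

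Of the 6 genes of the IFIT, OAS and PKR family, 4 rose at P28 (1 without P28 replicate 3). Ifit1, which binds RNA that lacks the methylated cap of the host, had 16.0, 14.9 and 30.0 TPM at P28, against 6.33, 4.35, 4.25 and 4.13 TPM at P7. The 2 groups of libraries did not overlap, and the mean at P28 was 4.26 times that at P7, with a log2 fold change of 1.83 ± 0.48 (SE) and an adjusted p of 0.00373. Ifit3 had 68.7, 78.1 and 156 TPM at P28, against 53.2, 38.6, 30.3 and 34.6 TPM at P7. It too showed no overlap, yet replicates 1 and 2 of P28 lay much nearer to P7 than replicate 3, and the call (1.28 ± 0.44, adjusted p = 0.0212) was lost without that library (adjusted p = 0.137). Oas1a, which makes the oligoadenylate that activates RNase L, averaged 6.14 ± 1.98 TPM at P28 and 2.65 ± 0.893 TPM at P7, and Eif2ak2 (PKR), a dsRNA-activated kinase that halts translation, averaged 7.62 ± 2.07 and 5.25 ± 0.546 TPM. Both rose and both calls were lost without P28 replicate 3 (adjusted p = 0.0844 and 0.255). Ifit2 (0.22 ± 0.18) and Oasl2 (1.0 ± 0.42, adjusted p = 0.0526) were not called. Reads of several of these genes can be split with near copies: 57.6% of the 50-base words of Oas1a transcripts also occur in another gene, chiefly Oas1g, as do 51.2% of those of Ifit3, in Ifit3b. How such reads were shared out is not given in the sources used here.

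Of the 7 modifiers of other proteins, 5 rose at P28 (2 without P28 replicate 3, Isg15 and Parp14). Isg15, the ubiquitin-like protein that is conjugated to newly made proteins, had 26.6, 26.1 and 50.9 TPM at P28, against 14.2, 10.9, 6.28 and 9.55 TPM at P7. The lowest P28 library lay above the highest P7 library. The ratio of means was 3.37, with a log2 fold change of 1.64 ± 0.43 (SE) and an adjusted p of 0.00411 (0.0348 without P28 replicate 3). Usp18, the protease that removes Isg15 and damps the interferon receptor, averaged 16.9 ± 7.82 TPM at P28, against 6.78 ± 2.18 TPM at P7 (adjusted p = 0.00804, and 0.0796 without P28 replicate 3). Parp14, an ADP-ribosyltransferase, had 4.96, 4.49 and 6.04 TPM at P28, against 2.71, 1.74, 2.29 and 1.77 TPM at P7, without overlap, and a log2 fold change of 0.98 ± 0.28 (SE) and an adjusted p of 0.00633. Trim30a and Dtx3l were also called, but not without P28 replicate 3 (adjusted p = 0.188 and 0.0608), and Trim25 (-0.13 ± 0.22) and Parp9 (0.08 ± 0.18) were not. Parp9 and Dtx3l, whose proteins act together, overlap at their starts on opposite strands, and the sources used here do not say whether reads were counted by strand.

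Of the 8 other induced proteins, 6 rose at P28 (4 without P28 replicate 3). Sp100, a component of nuclear bodies that restrain viral DNA, had 18.8, 17.0 and 21 TPM at P28, against 3.35, 5.04, 4.83 and 2.94 TPM at P7. All P28 libraries stood well clear of all P7 libraries. Its 4.68-fold ratio of means was the largest of the 38 genes, with a log2 fold change of 2.002 ± 0.45 (SE) and an adjusted p of 0.00122. Lgals3bp had 111, 104 and 143 TPM at P28, against 53.9, 56.1, 49.5 and 46.5 TPM at P7. The groups again did not overlap, and the log2 fold change was 1.19 ± 0.19 with an adjusted p of 5.6e-05, the smallest of the 38. Xaf1, an induced protein that promotes apoptosis, had 36.7, 43.8 and 47.8 TPM at P28, against 19.7, 20.0, 15.9 and 16.4 TPM at P7, and Rtp4, a chaperone of receptor transport, averaged 49.5 ± 12.9 TPM at P28 and 22.8 ± 3.69 TPM at P7. Their log2 fold changes were 1.202 ± 0.24 and 1.07 ± 0.22, both called with and without P28 replicate 3. Ifi27 and Ifi44 were called with all libraries only, and Ifi35 (0.69 ± 0.30) and Ifi27l2a (-0.17 ± 0.73) were not called.

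**Figure D4:**
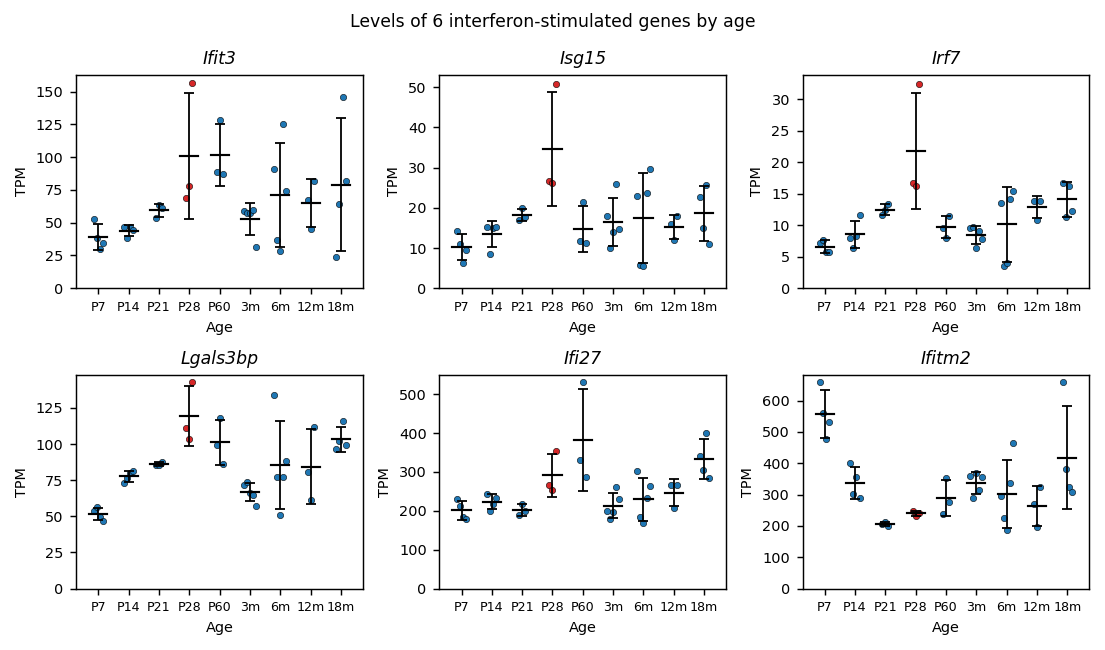
TPM of 6 genes in each library by age (points, with P28 in red), with the mean and SD of each age (black). Ifit3, Isg15, Irf7 and Lgals3bp have their single highest library at P28, Ifi27 has its at P60, and Ifitm2 has its highest mean at P7.

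Of the 4 sensors, 3 rose at P28 (1 without P28 replicate 3). Both tested GTPases rose (neither without P28 replicate 3), and of the 3 membrane proteins none rose and 1 fell, with or without it. Dhx58 had 3.76, 3.53 and 4.39 TPM at P28, against 1.51, 1.59, 1.57 and 1.23 TPM at P7, without overlap, and rose by 0.98 ± 0.25 on the log2 scale. Ifih1 and Zbp1 also rose, with calls lost without P28 replicate 3, and Ddx58 (RIG-I), which detects RNA with a triphosphate end, was not called (0.51 ± 0.22, adjusted p = 0.0604). The guanylate-binding proteins Gbp2 and Gbp3 rose by 0.83 ± 0.26 and 0.92 ± 0.28, and both calls were lost without P28 replicate 3. Rsad2 and its genomic neighbour Cmpk2, a mitochondrial nucleotide kinase, rose by 1.03 ± 0.34 and 0.59 ± 0.18, again only with that library. Ifitm2 was the gene that fell. It had 246, 232 and 242 TPM at P28, against 659, 559, 479 and 533 TPM at P7. The 3 P28 libraries lay close together and all were far below the P7 libraries, with a log2 fold change of -1.203 ± 0.23 (SE) and an adjusted p of 0.000339. Ifitm3 (-0.25 ± 0.27) and Bst2 (tetherin, which holds budding virus at the membrane; 0.20 ± 0.32) were not called. Of the 50-base words of Ifitm2 transcripts, 48.5% also occur in other genes. For 36.1% this gene is Gm45717, which overlaps Ifitm2 on the same strand and is not in the expression table. The level of Ifitm2 may therefore be mixed with that of these genes.

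At P60, against P7, 9 of 38 genes rose and 2 fell. The share that rose, 23.7%, was near the 19.5% of all genes tested, and the share that fell, 5.26%, lay below the 33.3% of all genes, of which 52.8% were called in either direction. The median log2 fold change of the 38 genes was 0.30, against -0.15 over all genes tested (0.20 and -0.16 without P60 replicate 2). Median-of-ratios rescaling moved the higher against lower calls over all genes to 28.5% against 21.1% and those among the 38 genes to 13 against 2. Without P60 replicate 2, which had the highest level of its age for 28 of 38 genes (26.6% of all genes), 4 rose and 2 fell, against 16.6% and 28.1% of all genes. Ifi27, Parp14, Lgals3bp and Ifitm2 kept their call in every setting tried in which the gene was tested.

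Ifi27 had 329, 532 and 287 TPM at P60, against 231, 211, 185 and 179 TPM at P7. All 3 P60 libraries were above the P7 libraries, with replicate 2 highest, and the log2 fold change was 0.88 ± 0.18 (adjusted p = 0.000528). Lgals3bp had 99.5, 118 and 86.5 TPM at P60, against 53.9, 56.1, 49.5 and 46.5 TPM at P7. It did not overlap either, with a log2 fold change of 0.95 ± 0.19 (SE) and an adjusted p of 0.000354. Parp14 had 3.39, 5.60 and 6.24 TPM at P60, against 2.71, 1.74, 2.29 and 1.77 TPM at P7. Its lowest P60 library exceeded its highest P7 library, and the log2 fold change was 0.94 ± 0.28 (adjusted p = 0.00668). Ifitm2 had 237, 353 and 278 TPM at P60, against 659, 559, 479 and 533 TPM at P7, again with every P60 library lower, and a log2 fold change of -0.95 ± 0.23.

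Ifit1 and Ifit3 had 11.2, 16.9 and 11.4 TPM and 88.8, 129 and 86.8 TPM at P60, against 6.33, 4.35, 4.25 and 4.13 TPM and 53.2, 38.6, 30.3 and 34.6 TPM at P7, so that neither overlapped. Their log2 fold changes were 1.29 ± 0.48 and 1.356 ± 0.44. Both calls were lost without P60 replicate 2 (adjusted p = 0.095 and 0.0574), as were those of Xaf1, Dhx58, Irf1 and Stat2. Stat2, the transactivating part of the type I complex, had 10.1, 9.64 and 10.9 TPM at P60, against 14.9, 15.6, 15.8 and 15.3 TPM at P7, and fell by 0.55 on the log2 scale with an adjusted p of 0.02 (0.0624 without P60 replicate 2 and 0.0529 without P60 replicate 1). The call of Irf1 (0.45 ± 0.19, adjusted p = 0.0485) was lost in 19 of the 34 fits without 1 library. That of Sp100 (1.25 ± 0.45) was lost without P7 replicate 4 or P60 replicate 3, and that of Dhx58 also without P7 replicate 4. Of the markers of other cells at P60, 6 of 12 endothelial ones were lower than at P7 and none was higher, with sums of 806 to 1251 TPM at P60 against 810 to 1316 TPM at P7. Of the 12 microglial markers, 7 were higher, with sums of 185 to 230 TPM at P60 against 82.4 to 150.0 TPM at P7, and 8 of 10 neuronal and 2 of 4 tested T cell and NK cell markers were higher. Ependymal markers were higher for 6 of 6 and oligodendrocyte markers for 6 of 8, with 1 of the 8 lower, while 5 of 6 fibroblast, 3 of 5 tested border macrophage and 2 of 5 oligodendrocyte precursor markers were lower. Of 9 pericyte and smooth muscle markers, 2 were higher and 1 lower, and of 10 astrocyte markers 4 were higher and 3 lower. When the endothelial and microglial means were added as covariates, the 11 calls were kept and 9 more genes rose. In that fit, 18 rose and 2 fell.

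P60 and P28, which lie in the same range of genes listed at 0, did not differ for any of the 38 genes at an adjusted p under 0.05, a comparison also chosen after the levels had been seen. Over all genes tested 0.212% were higher and 0.905% lower. By limma, 14 of the 38 had an unadjusted p under 0.05, as did 2680 of all 14590 genes tested. Of the 38 log2 fold changes, 31 were below 0, and 18.4% were above 0, against 34.5% over all genes. The median of the 38 was -0.42, against -0.11 over all genes (-0.25 and -0.07 without P28 replicate 3). The smallest adjusted p was that of Eif2ak2 (0.0741), with 3.78, 5.33 and 4.67 TPM at P60, against 6.44, 6.41 and 10.01 TPM at P28. Quantile normalization called 1 gene lower and a fit of these 2 ages alone called 3. P28 replicate 3 is high for most genes, so this absence of calls does not show that the 2 ages have like levels.

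At 3m, against P60, none of the 38 genes rose (8.26% of all genes tested) and 2 fell (1.93%), by limma. An unadjusted p under 0.05 was reached by 4 of the 38, against 3799 of all 14590 genes tested. The median log2 fold change of the 38 genes was -0.10, against 0.12 over all genes tested (0.10 and 0.12 without P60 replicate 2). Ifi27 had 199.7, 179, 197, 260.5 and 231 TPM at 3m, against 329, 532 and 287 TPM at P60, without overlap, and a log2 fold change of -0.80 ± 0.18 (SE) and an adjusted p of 0.004. Lgals3bp had 71.5, 73.5, 66.5, 64.8 and 57.1 TPM at 3m, against 99.5, 118 and 86.5 TPM at P60. It too showed no overlap, with a log2 fold change of -0.59 ± 0.18 (SE) and an adjusted p of 0.0365. Both calls were lost without P60 replicate 2 (adjusted p = 0.0763 and 0.185), and that of Lgals3bp was also lost without P60 replicate 1 or 3 or without 3m replicate 3, 4 or 5, without a filter and with the replicate block. At 3m, 4 of 6 fibroblast and 3 of 12 endothelial markers were higher than at P60, 3 of 8 oligodendrocyte markers were lower, and of 10 astrocyte markers 2 were higher and 1 lower. The endothelial sum was 1038 to 1375 TPM at 3m, against 806 to 1251 TPM at P60, and the part of the cell mix was not tested.

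18m was compared with P7 as the ends of the series, and both lie in the same range of genes listed at 0. At 18m, replicate 1 stood apart: it was the lowest of all 34 libraries for 37.2% of all genes tested and for 3 of the 38. Its T cell and NK cell markers summed to 19.0 TPM, against 1.80 to 3.90 TPM in the other 18m libraries, and its B cell and neutrophil markers to 42.9 TPM, against 0.836 to 2.90 TPM. Of the 38 genes, 8 rose (21.1%, against 4.67% of all genes tested) and 1 fell (2.63%, against 24.9%). The median log2 fold change was 0.34, against -0.20 over all genes. Without 18m replicate 1, 7 rose (5.37% of all genes) and 1 fell (15.1%): Irf7, Sp100 and Eif2ak2 were lost, and Ifit3 rose and Ifitm2 fell in addition. Median-of-ratios rescaling and quantile normalization, which bring the median of all genes to 0.03 and -0.03, gave 12 and 11 genes higher and none lower, with 10.8% and 8.16% of all genes higher and 9.21% and 10.6% lower. Lgals3bp had 96.9, 102, 116 and 99.0 TPM at 18m, against 53.9, 56.1, 49.5 and 46.5 TPM at P7. The groups were far apart, with a log2 fold change of 0.99 ± 0.18 (SE) and an adjusted p of 0.00017. Ifi27 had 339.8, 305, 401 and 285 TPM at 18m, against 231, 211, 185 and 179 TPM at P7, and Xaf1 had 38.3, 29.3, 40.7 and 31.5 TPM at 18m, against 19.7, 20.0, 15.9 and 16.4 TPM at P7. Neither overlapped, and their log2 fold changes were 0.72 ± 0.17 (adjusted p = 0.00282) and 0.91 ± 0.22 (adjusted p = 0.00312). Rsad2 had 4.22, 5.71, 6.17 and 3.63 TPM at 18m, against 1.88, 1.54, 1.42 and 1.69 TPM at P7, so that its mean at 18m was 3.02 times that at P7, with a log2 fold change of 1.15 ± 0.31 (SE) and an adjusted p of 0.00753. The 2 ranges did not overlap. These 4 calls held in every setting tried in which the gene was tested.

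Irf7 had 16.6, 11.3, 16.3 and 12.2 TPM at 18m, against 7.15, 7.73, 5.80 and 5.68 TPM at P7, with a log2 fold change of 0.99 ± 0.30 (adjusted p = 0.0167, and 0.0524 without 18m replicate 1). Irf1 had 25.9, 21.4, 30.0 and 28.02 TPM at 18m, against 18.3, 18.5, 15.8 and 19.1 TPM at P7, and was called (0.52 ± 0.18), but not without P7 replicate 3, 18m replicate 3 or 18m replicate 4. Rtp4 averaged 37.1 ± 7.31 TPM at 18m, against 22.8 ± 3.69 TPM at P7, and lost its call without P7 replicate 3 or 18m replicate 3. Sp100 averaged 11.8 ± 4.66 TPM, against 4.04 ± 1.05 TPM, and lost its call without P7 replicate 4 or 18m replicate 1. Each of these 4 genes was higher in every 18m library than in every P7 library. Eif2ak2 had 3.02, 3.39, 4.13 and 4.45 TPM at 18m, against 5.52, 5.60, 5.44 and 4.44 TPM at P7. It fell by 0.40 on the log2 scale (adjusted p = 0.0449), its ranges overlapped, and the call was lost under both rescalings, without a filter, in the fit of the 2 ages and in 7 of 34 fits without 1 library, those without P7 replicate 1, 2 or 3, 3m replicate 1, 12m replicate 1 or 18m replicate 1 or 2. Of the cell type markers, 4 of 6 ependymal ones were higher at 18m than at P7 and 4 of 6 fibroblast ones lower. Of 12 endothelial markers 1 was higher and 1 lower, 1 marker each of the microglial, oligodendrocyte, oligodendrocyte precursor and neuronal lists was higher, and of 10 astrocyte markers 2 were higher and 3 lower. The endothelial sum was 899 to 2482 TPM at 18m, against 810 to 1316 TPM at P7, and the microglial sum 85.2 to 177 TPM, against 82.4 to 150.0 TPM at P7. The T cell and NK cell sum was 1.80 to 3.90 TPM in 18m replicates 2 to 4, against 0.598 to 3.02 TPM at P7, and none of its 4 tested markers was called.

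**Figure D5:**
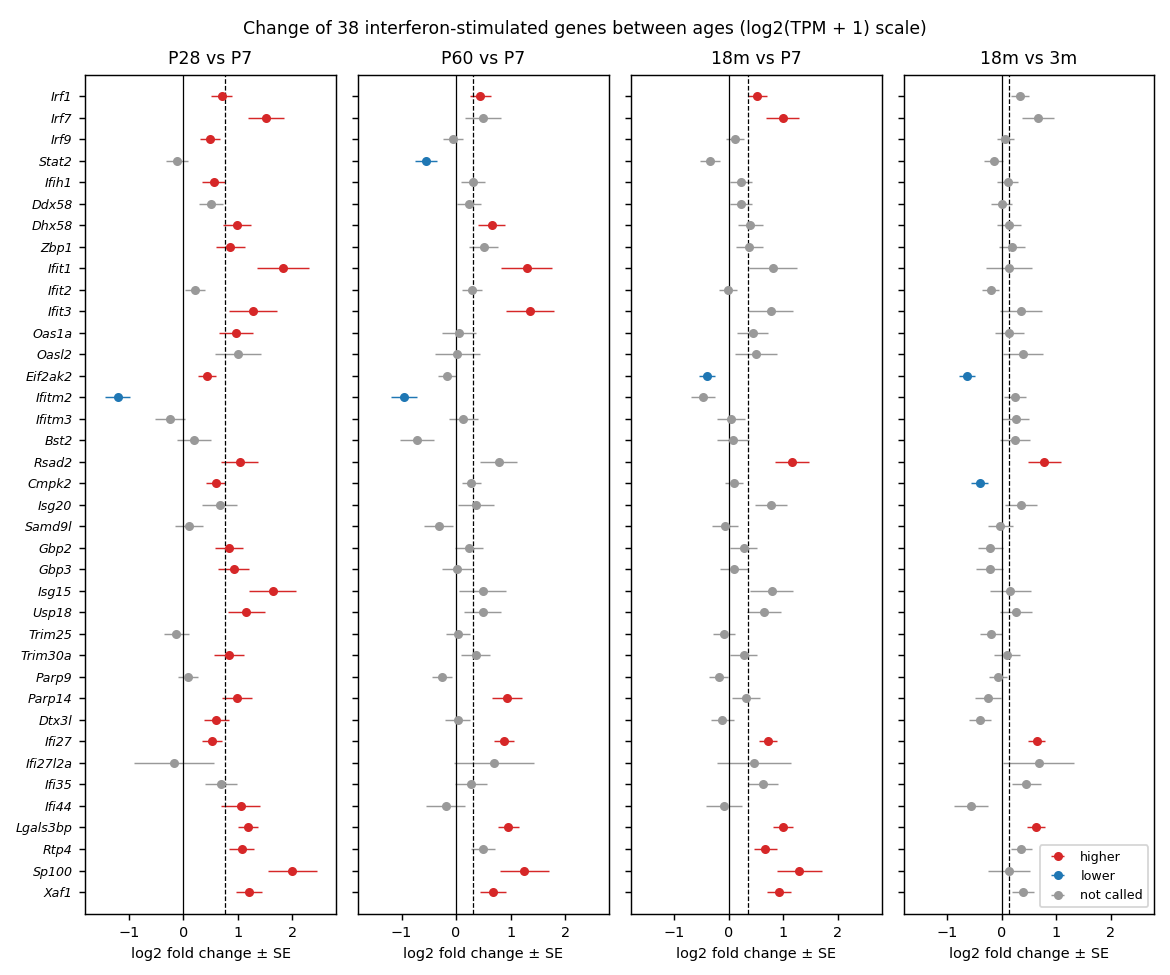
Log2 fold change (x axis, log2(TPM + 1) scale, with SE as bars) of the 38 genes tested in 4 comparisons, with red for genes called higher in the first age named, blue for genes called lower and grey for genes not called (limma, adjusted p under 0.05). The solid line marks 0 and the dashed line the median of the 38 genes, which lies at 0.77 for P28 against P7 and at 0.14 for 18m against 3m.

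At 18m, against 3m, 3 of 38 genes rose (7.89%, against 4.16% of all genes tested) and 2 fell (5.26%, against 33.4%). The median log2 fold change of the 38 genes was 0.14, against -0.24 over all genes. Without 18m replicate 1, 2 rose (3.98% of all genes) and 1 fell (19.8%). The split depends on the scaling: median-of-ratios rescaling, which moves the median of all genes to -0.03, gave 8 higher and 1 lower among the 38 and 17.0% and 19.5% over all genes, and quantile normalization gave 11 and 0 among the 38 and 14.4% and 12.5% over all genes. Ifi27 had 339.8, 305, 401 and 285 TPM at 18m, against 199.7, 179, 197, 260.5 and 231 TPM at 3m, without overlap, and a log2 fold change of 0.64 ± 0.16 (adjusted p = 0.0033) that was called in every setting tried. The endothelial sum was 899 to 2482 TPM at 18m, against 1038 to 1375 TPM at 3m, and the microglial sum 85.2 to 177 TPM, against 132 to 231 TPM at 3m. Lgals3bp had 96.9, 102, 116 and 99.0 TPM at 18m, against 71.5, 73.5, 66.5, 64.8 and 57.1 TPM at 3m, also without overlap, and 0.63 ± 0.17 (adjusted p = 0.00483, and 0.082 with the endothelial and microglial covariates). Rsad2 had 4.22, 5.71, 6.17 and 3.63 TPM at 18m, against 3.56, 2.74, 1.97, 1.85 and 2.10 TPM at 3m. Every 18m library exceeded every 3m library, but its call (0.78 ± 0.30, adjusted p = 0.0386) was lost without 3m replicate 3, 4 or 5, without 18m replicate 1, 2 or 3 and with a pseudocount of 0.1.

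Eif2ak2 had 3.02, 3.39, 4.13 and 4.45 TPM at 18m, against 6.33, 6.96, 5.49, 6.61 and 6.15 TPM at 3m. Every 18m library lay below every 3m library, with a log2 fold change of -0.63 ± 0.14 and an adjusted p of 0.00145 (0.0856 after quantile normalization). Cmpk2 had 8.09, 11.3, 13.2 and 11.8 TPM at 18m, against 14.3, 14.5, 14.6, 17.1 and 13.5 TPM at 3m, and its call (-0.40 ± 0.16, adjusted p = 0.0443) was lost under both rescalings (adjusted p = 0.26 and 0.493), with the endothelial and microglial covariates (0.072), in the fit of the 2 ages (0.0512) and without any of 3m replicates 1 to 4 or of 18m replicates 1 and 2. Among the markers of other cells, 5 of 12 microglial, 7 of 10 neuronal, 3 of 6 fibroblast and 1 of 4 tested T cell and NK cell ones were lower at 18m than at 3m, 2 of 5 oligodendrocyte precursor ones were higher and no endothelial one was called. Of the 10 astrocyte markers, 1 was higher and 6 were lower. 18m against P60 gave no call among the 38 genes in either direction (3.63% and 10.2% of all genes), by limma. An unadjusted p under 0.05 was reached by 3 of the 38, against 4153 of all 14590 genes tested. The smallest adjusted p was 0.0948, for Bst2. With the endothelial and microglial covariates, Parp14 and Sp100 were called lower, at log2 fold changes that without the covariates were -0.63 ± 0.28 and 0.04 ± 0.45.

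The mean level of the genes spanned a wider range over the libraries of 6m than over those of any other age. The mean log2(TPM + 1) of all 39 genes, Mx1 included, was 3.87, 2.94, 3.15, 4.22 and 3.96 in 6m replicates 1 to 5. Replicate 2 was the lowest of all 34 libraries for 20 of the 38 genes (5.85% of all genes) and replicate 3 for 9 (2.60%), while replicate 4 was the highest of its age for 23 (46.4%). Isg15, for example, had 22.9, 5.70, 5.45, 23.6 and 29.6 TPM in replicates 1 to 5, Irf7 had 13.5, 3.47, 3.97, 14.1 and 15.5 TPM and Oasl2 had 32.7, 7.73, 7.51, 33.8 and 24.6 TPM. Replicates 2 and 3 were low for all 3 of these genes. The endothelial markers averaged 5.003, 3.28, 4.60, 5.90 and 5.78 on the same scale in replicates 1 to 5, and the neuronal markers 2.55, 4.49, 4.62, 2.41 and 3.23. The microglial markers averaged 2.38, 3.14, 3.69, 2.71 and 2.84 in the same order. The 2 libraries with the lowest levels of these genes thus had the least endothelial and the most neuronal and microglial transcript. The part of the cell mix in the spread at 6m was not tested. Elsewhere, 12m replicate 2 was the lowest of its age for 35 of the 38 genes (52.4% of all genes), 3m replicate 4 was the highest of its age for 26 (41.7%) and 18m replicate 3 for 27 (40.4%).

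The genes varied together across libraries. Over 703 pairs of the 38 genes, the median Pearson correlation of log2(TPM + 1) was 0.54 over the 34 libraries, against 0.14 over all pairs of genes tested, and 0.61 against 0.15 after the mean of each age had been taken out. These are descriptions, since genes of 1 library share its cell mix and its scaling. Usp18, Oasl2, Ifi44 and Irf9 had the highest mean correlation with the other 37 genes, at 0.70, 0.69, 0.69 and 0.68, and Isg20, Stat2, Eif2ak2 and Ifitm2 the lowest, at 0.21, 0.29, 0.31 and 0.40. Ifi27l2a, a small protein related to Ifi27, rested on single libraries: it had 17.0, 120 and 8.11 TPM at P60 and 33.0, 14.8, 64.9 and 6.83 TPM at 18m. In the RefSeq annotation its gene overlaps that of Ifi27.

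The ligands of the pathway were at or near 0. All 21 interferon genes listed were in the table and none passed the filter. For 18 of them every library was under 1 TPM, and the highest value of any was 1.56 TPM, for Ifna4. Of 15 receptors and signal transducers, 14 were tested and 9 differed among the ages, a share near the 63.6% of all genes. At P60, against P7, 1 of the 14 rose and 7 fell (1 and 4 without P60 replicate 2), beside 19.5% and 33.3% of all genes. At P28, against P7, 3 rose and 2 fell (1 and 2 without P28 replicate 3), beside 21.4% each way over all genes. At 18m, against P7, none rose and 2 fell (0 and 1 without 18m replicate 1), beside 4.67% and 24.9% of all genes. The 5 with the smallest F test p were Irf3, Stat3, Ifnar1, Jak2 and Ifngr2. Irf3, the factor that starts interferon transcription, averaged 77.9 ± 12.3 TPM at P60, against 102 ± 9.69 TPM at P7 (log2 fold change -0.39 ± 0.11, adjusted p = 0.00331). Ifnar1, a chain of the type I receptor, averaged 32.6 ± 4.47 and 43.1 ± 2.94 TPM at the same ages (-0.40 ± 0.16, adjusted p = 0.0389), and Ifngr2, a chain of the gamma receptor, 18.9 ± 0.203 and 31.4 ± 0.617 TPM (-0.71 ± 0.14, adjusted p = 0.000318).

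The all-gene shares just given apply to the same comparisons of the next lists, and for 18m against 3m they are 4.16% higher and 33.4% lower. Of 15 tested genes of nucleic acid sensing, 3 rose and 1 fell at P28 against P7 (2 and 0 without P28 replicate 3), 2 rose and 3 fell at P60 against P7, and none rose and 4 fell at 18m against 3m (0 and 2 without 18m replicate 1). The 5 with the smallest F test p were Traf3, Tlr3, Myd88, Trim56 and Aim2. Tlr3, an endosomal receptor for dsRNA, averaged 70.2 ± 10.9 TPM at P28, against 24.4 ± 2.38 TPM at P7 (1.48 ± 0.31, adjusted p = 0.000804). Traf3, an adaptor of sensor signalling, averaged 3.31 ± 0.651 TPM at 18m, against 7.07 ± 0.605 TPM at 3m (-0.91 ± 0.15, adjusted p = 7.05e-05). Of 17 limiters, 2 rose and 9 fell at P60 against P7 (0 and 8 without P60 replicate 2) and 4 rose and 4 fell at P28 against P7 (3 and 4 without P28 replicate 3), counts at P28 near the share of all genes each way. The leading 5 by the F test were Rnaseh2b, Rnaseh2c, Rnaseh2a, Cyld and Socs3. The 3 named first encode the subunits of RNase H2, which clears RNA from DNA, and Rnaseh2b averaged 14.9 ± 1.15 TPM at P60, against 28.5 ± 2.31 TPM at P7 (-0.89 ± 0.18). Socs3, an inhibitor of JAK kinases, averaged 2.85 ± 0.351 TPM at P28, against 10.3 ± 2.74 TPM at P7 (-1.52 ± 0.39, adjusted p = 0.00345).

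A further list of 71 interferon-stimulated genes, of which 56 were tested, was followed beside the 38 genes. At P28, against P7, 31 rose and 2 fell (23 and 3 without P28 replicate 3), with a median log2 fold change of 0.64 (0.55 without it), beside 21.4% of all genes each way and a median of -0.02, and 32 of the 56 had their highest mean at P28, where 17.2% of all genes had theirs. At P60, against P7, 13 rose and 2 fell (10 and 2 without P60 replicate 2), the 13 of 56 near the 19.5% of all genes and the 2 below the 33.3%. At 18m, against P7, 7 rose and 1 fell (8 and 2 without 18m replicate 1), beside 4.67% and 24.9% of all genes. At 18m, against 3m, 4 rose and 6 fell (4 and 4 without 18m replicate 1), beside 4.16% and 33.4% of all genes. The 5 with the smallest F test p were Psmb8, Slfn9, Nmi, Ccl5 and Znfx1. Psmb8, a catalytic subunit of the immunoproteasome, averaged 39.6 ± 0.479 TPM at P28, against 17.3 ± 2.71 TPM at P7 (1.16 ± 0.21, adjusted p = 0.00017), and 35.5 ± 4.37 TPM at 18m, against 19.8 ± 1.14 TPM at 3m (0.80 ± 0.18, adjusted p = 0.00145). Slfn9, a schlafen family protein, ran the other way, with 0.433 ± 0.0530 TPM at P28, against 1.39 ± 0.304 TPM at P7 (-0.73 ± 0.17). Ccl5, a chemokine that attracts T cells, averaged 6.46 ± 0.264 TPM at P28, against 0.802 ± 0.515 TPM at P7 (2.09 ± 0.44), beside the T cell and NK cell sums given above. The calls of Tlr3, Socs3, Psmb8, Slfn9 and Ccl5 held without P28 replicate 3, and those of Irf3, Ifnar1, Ifngr2 and Rnaseh2b held without P60 replicate 2, and those of Traf3 and Psmb8 at 18m against 3m held without 18m replicate 1.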

How the data were processed

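The deposited table holds TPM per gene for 34 libraries of cortical astrocytes from WT male mice at 9 ages, made by the authors. Per the labels' protocols, RNA was enriched for polyadenylated transcripts, copied with SMART-Seq v4 and sequenced on a NovaSeq instrument. Trim Galore 0.6.4, STAR 2.7.1a, RSEM 1.2.28, DESeq2 1.36.0 and the build mm10 are named in the submitters' processing notes, with no role, order, annotation or strand setting given. TPM sum to the same total in each library and keep no depth, so no counting interval is given, and genes that take a large share lower all others.

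Of 20614 genes, 20613 had values. Tests were run on the 14590 genes that reached 1 TPM in 3 libraries or more, with limma 3.58.1 (R 4.3.3, statmod 1.5.0; variance trend, robust) on log2(TPM + 1), a scale that understates changes of low genes. The fit had 1 mean per age over all 34 libraries, and p-values were adjusted by Benjamini-Hochberg over all genes. Calls are at an adjusted p under 0.05. Libraries were grouped by the age in their titles. Contrasts were P60 vs P7, 3m vs P60, 18m vs 3m, 18m vs P60, 18m vs P7 and an F test over the ages. P28 vs P7 and P60 vs P28 were added after the levels were seen. Members and lists were chosen with earlier results of these data known. Described in full are members called by the F test with a mean of at least 5 TPM at some age, members called in any of the 5 first contrasts and the 5 most abundant, and, of each pathway list, the 5 genes with the smallest F test p. Other P28 members were named after their values were seen.

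The alternatives were to add 0.1 before the log, to keep every gene above 0, to filter at 5 TPM, to rescale by median of ratios, to normalize by quantiles, to block on the replicate number, to add endothelial and microglial marker means as covariates, to fit only the ages of a contrast, and to drop 1 library at a time. Tables, motifs and figures were made in Python 3.11.15 with pandas 2.3.3 and matplotlib 3.10.9.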

Additional observations from a re-analysis of the deposited data

Results flagged for a closer look

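In 6 of the 195 combinations of gene and age with 4 or 5 libraries, 1 library lay far from the others by Dixon's ratio of gap to range at the 95% level. Chance flags about 1 in 20 such groups. Ifit1 at P7 was at 6.33 TPM in replicate 1, against 4.13 to 4.35 TPM in the others. Eif2ak2 at P7 was at 4.44 TPM in replicate 4, against 5.44 to 5.60 TPM in the others. Isg15 and Parp9 at P14 were both low in replicate 2, at 8.55 TPM against 15.1 to 15.2 TPM and at 5.26 TPM against 6.41 to 6.66 TPM. Ifit3 at 3m was at 31.1 TPM in replicate 5, against 57.1 to 59.6 TPM in the others. Oasl2 at 18m was at 33.5 TPM in replicate 3, against 17.6 to 18.6 TPM in the others.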

How the results depend on the processing

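Of 11130 values of single genes under the alternatives, 10893 kept their side of the threshold, 123 became calls, 113 lost the call and 1 reversed. The 10893 include changes of sign in which neither fit called the gene. Without a library of another age, the fold change itself cannot move. The value that reversed was Sp100 in 18m vs P60, at -0.64 ± 0.18 (SE, log2, limma adjusted p = 0.0312) with the endothelial and microglial covariates. Counts among the 38 genes moved by more than 1.5 times as follows, and the cause was not tested. The shares of all genes called without a filter, with the covariates or in fits of 2 ages are not given here. Without a filter, 3m vs P60 had 1 lower and 18m vs P7 had 0 lower. Median-of-ratios rescaling gave 8 higher and 1 lower in 18m vs 3m and 0 lower in 18m vs P7. Quantile normalization gave 11 and 0 in 18m vs 3m, 0 lower in 18m vs P7 and 1 lower in P60 vs P28. The covariates gave 18 higher in P60 vs P7, 5 lower in 3m vs P60 and 2 lower in 18m vs P60. Fits of 2 ages, which rest on fewer libraries, gave 14 higher in P60 vs P7, 1 higher in 3m vs P60, 6 higher and 1 lower in 18m vs 3m, 0 lower in 18m vs P7 and 3 lower in P60 vs P28.

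Leaving out 1 library gave 13 to 20 genes by the F test, 4 to 11 higher and 1 to 3 lower in P60 vs P7, 0 higher and 0 to 2 lower in 3m vs P60, 2 to 4 higher and 1 to 3 lower in 18m vs 3m, 0 higher and 0 lower in 18m vs P60, 6 to 9 higher and 0 to 2 lower in 18m vs P7, 9 to 27 higher and 1 lower in P28 vs P7, and 0 higher and 0 to 1 lower in P60 vs P28.

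Replicate numbers recur across ages, but nothing says that they pair libraries. Over 119 pairs with the same number, deviations from the age means had a mean correlation of 0.00226 (-0.44 to 0.461). Pairs with different numbers were not set beside them, so this mean cannot decide whether some libraries were paired. With the replicate block, 1 gene was lower in 3m vs P60 and 1 in P60 vs P28.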
